A study of Tupaia belangeri with 6 samples.

Results

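The NMDA receptor subunits were followed by name in single-nucleus RNA-seq (snRNA-seq) of the tree shrew (TS) hippocampus. Of the 7 subunit genes sought (GRIN1, GRIN2A, GRIN2B, GRIN2C, GRIN2D, GRIN3A and GRIN3B), 6 had a row among the 83605 listed features and 4 had at least 1 unique molecular identifier (UMI). The libraries came from 3 TSs with Alzheimer's-like pathology (ALP) and 3 control TSs, 1 library per animal. By the study's methods all were naturally aging animals of 1 colony, sorted by the time they took through a pipeline maze, slow animals as ALP and fast ones as controls. No transgene or drug was part of the design, and the sex of each library is not used here. After the study's limits on genes and mitochondrial share, 14387 control and 13846 ALP nuclei were kept of 37603 barcodes.

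NMDA receptors are glutamate-gated channels that admit calcium and carry much of the signal for synaptic plasticity in the hippocampus. Each receptor joins obligatory GluN1 subunits (GRIN1), which bind the co-agonist glycine or D-serine, with GluN2 subunits (GRIN2A to GRIN2D), which bind glutamate and set the speed of the current, or with GluN3 subunits (GRIN3A, GRIN3B), which bind glycine and lower calcium entry. GluN2B prevails early in development and GluN2A gains weight at mature synapses.

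Kept nuclei numbered 7022, 1614 and 5751 in control libraries 1, 2 and 3 and 3927, 5217 and 4702 in ALP libraries 1, 2 and 3, with a median of 1503 to 2188 UMIs per nucleus. Control library 2 stood apart, with 46.4% of its barcodes over the limit of 2500 genes against 16.0% to 27.7% in the other 5 libraries. At most 0.465% of the cell barcodes were shared between a pair of libraries. Nuclei were clustered with the subunit genes kept out of the variable genes, and clusters were named by markers: granule-like (2248 nuclei), pyramidal-like (2360), interneuron-like (2446), astrocyte-like (3232), oligodendrocyte-like (8394), oligodendrocyte precursor (OPC)-like (2719), microglia-like (1404) and endothelial-like (496). A cluster of 420 nuclei with excitatory markers was kept as other excitatory, and 3009 nuclei of low depth were kept together without a cell type name. The 7 astrocyte markers, 9 microglia markers and 6 of 8 granule markers were highest in their own class, while only 4 of 8 pyramidal markers were. Pyramidal-like nuclei numbered only 54 in control library 3, against 123 to 635 elsewhere.

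GRIN1, the obligatory subunit, and GRIN3B were listed at 0 in all 6 libraries, 0 of 158150651 UMIs, which allows a level of up to 0.0190 CPM (UMIs of a gene scaled by the UMIs of its library or class), counting error only. The markers GAD2, SLC32A1, NRGN and MOBP were also at 0 CPM in the classes they were chosen to mark. A row at 0 here thus does not show that a gene is silent. Whether transcripts of GRIN1 were counted under another name was not tested. GRIN2D had no row and was not analysed here. A separate row named GRIN1li1, whose relation to GRIN1 is not given in the sources used here, held 12398 UMIs. GRIN1li1 averaged 122 ± 14.8 CPM in pyramidal-like nuclei (SD, n = 6 libraries), 116 ± 21.4 CPM in granule-like nuclei and 69.3 ± 17.6 CPM in interneuron-like nuclei, against 12.2 ± 4.58 CPM in oligodendrocyte-like nuclei. It is given as its own feature and not as the level of GRIN1. GRIN2A held 122233 UMIs over all barcodes, GRIN2B 148588, GRIN3A 4730 and GRIN2C 503.

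The upper limit of 2500 genes per nucleus removed most UMIs of the neuronal subunits. Barcodes over the limit held 73.9% of GRIN2A UMIs (60.5% to 88.3% by library), 73.8% of GRIN2B UMIs (61.0% to 88.0%) and 64.1% of GRIN3A UMIs (35.2% to 75.2%), but 32.8% of GRIN2C UMIs (11.5% to 60.4%). Over all genes the share was 60.4%. For GRIN2A and GRIN2B the highest share in each case was that of control library 2. The levels below come from kept nuclei, as UMIs of a gene in CPM of a class and library, and the classes were also formed without the upper limit. Of 37 levels of at least 20 CPM in kept nuclei, 3 then moved by over 1.5 times. GRIN2A in endothelial-like nuclei moved from 83.1 to 241 ± 163 CPM. GRIN2B moved from 89.1 to 234 ± 146 CPM in endothelial-like nuclei and from 72.8 to 131 ± 69.0 CPM in microglia-like nuclei. Levels under 20 CPM in kept nuclei were not part of this count.

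GRIN2A, the subunit of mature synapses, was a neuronal transcript with its highest class mean in granule-like nuclei. There GRIN2A stood at 1474, 1148 and 1525 CPM in control libraries 1, 2 and 3 and at 1325, 1295 and 1268 CPM in ALP libraries 1, 2 and 3, a mean of 1339 ± 139 CPM. In other excitatory nuclei GRIN2A was at 947, 935 and 1263 CPM in the control libraries and at 817, 1003 and 686 CPM in the ALP libraries. The granule-like level was above the other excitatory level in 6 of 6 libraries, by 0.52 ± 0.25 on the log2(CPM + 10) scale. In pyramidal-like nuclei GRIN2A read 935, 428 and 1129 CPM in the controls and 813, 673 and 868 CPM in the ALP libraries, and control library 2 was the lowest of the 6. Interneuron-like nuclei held GRIN2A at 760, 505 and 613 CPM (control) and 648, 712 and 805 CPM (ALP). The low-depth nuclei, at 875, 460 and 740 CPM (control) and 717, 907 and 388 CPM (ALP), overlapped with the neuronal classes except in ALP library 3, which was below every library value of those classes.

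**Figure D1:**
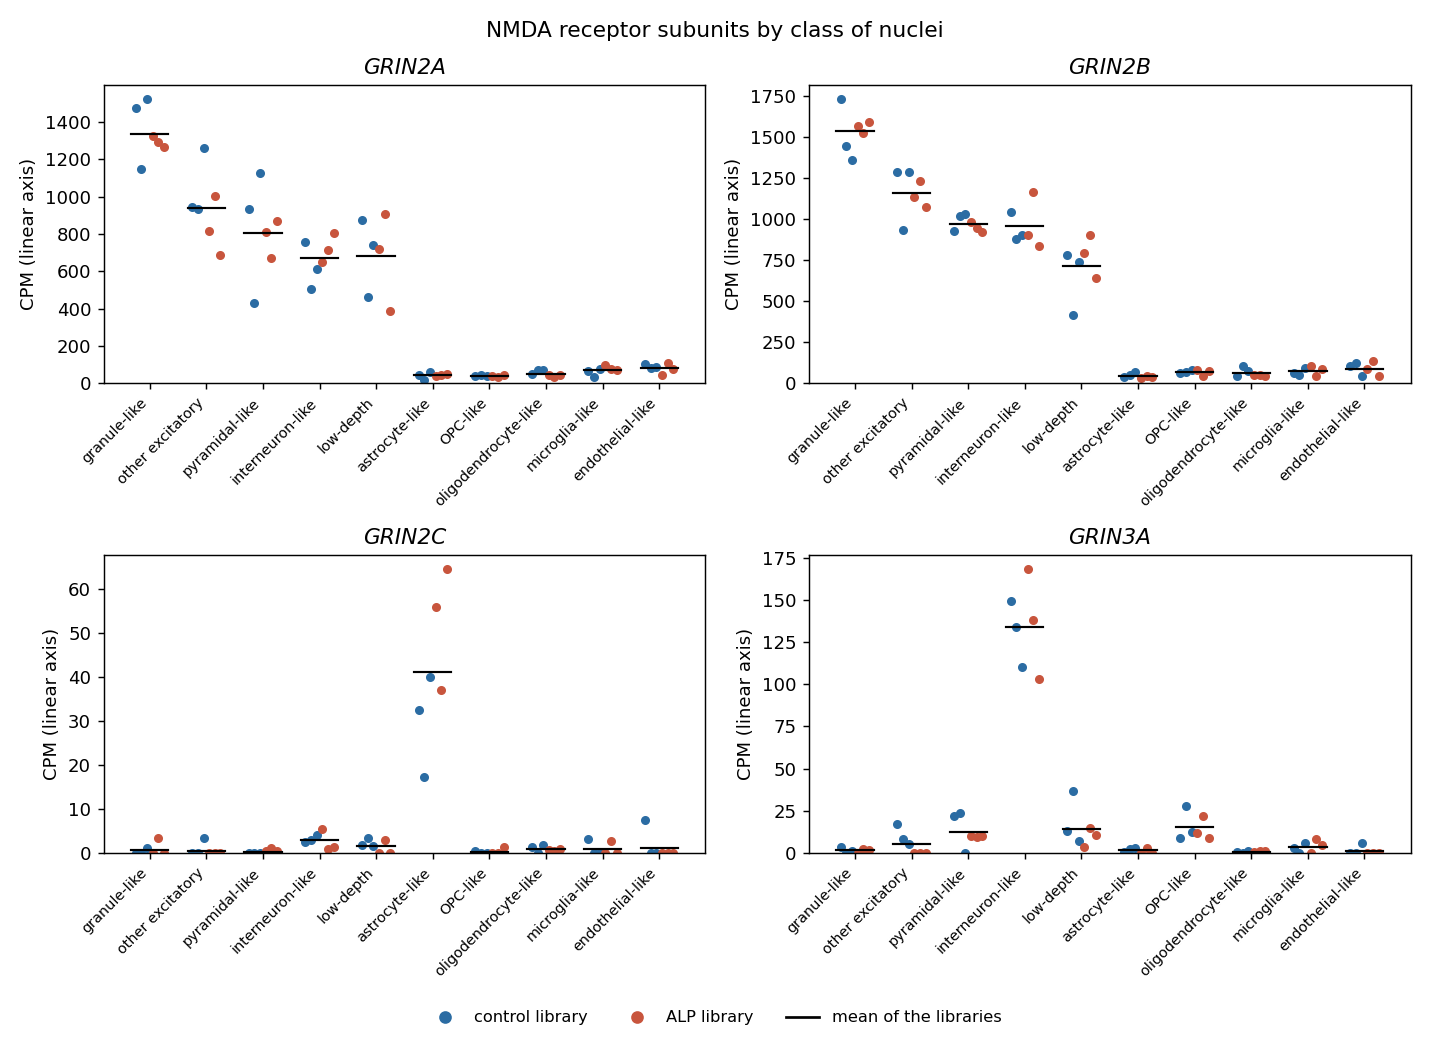
Level of each subunit gene (vertical axis, CPM, linear, a separate scale per panel) in 10 classes of nuclei (horizontal axis), with a point per library coloured by group and a bar at the mean of the 6 libraries. GRIN2A and GRIN2B are high in all neuronal classes, GRIN2C stands out in astrocyte-like nuclei (41.2 CPM) and GRIN3A in interneuron-like nuclei (134 CPM).

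GRIN2B, the subunit that prevails early in life, was also highest in granule-like nuclei. Its levels there were 1731, 1445 and 1358 CPM in control libraries 1, 2 and 3 and 1563, 1525 and 1592 CPM in ALP libraries 1, 2 and 3, a mean of 1536 ± 128 CPM. Other excitatory nuclei held GRIN2B at 1286, 935 and 1285 CPM (control) and 1133, 1230 and 1074 CPM (ALP), below the granule-like level in 6 of 6 libraries. In pyramidal-like nuclei GRIN2B was even across libraries, at 925, 1020 and 1030 CPM (control) and 978, 944 and 919 CPM (ALP). The SD of GRIN2B in pyramidal-like nuclei was 47.9 CPM around 969 CPM, while that of GRIN2A in the same nuclei was 239 CPM around 808 CPM. In interneuron-like nuclei GRIN2B read 1045, 878 and 905 CPM (control) and 902, 1165 and 834 CPM (ALP), and in low-depth nuclei 780, 416 and 735 CPM (control) and 795, 904 and 642 CPM (ALP).

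Neighbouring classes in the order of means were compared by a two-sided exact sign-flip permutation test over the 6 libraries, whose smallest possible p is 0.031, with Benjamini-Hochberg adjustment over the 9 neighbour pairs of a gene. No pair passed 0.05. A single step cannot pass after this adjustment, however large it is, so a miss does not show equal levels. For GRIN2A the steps from granule-like to other excitatory and from interneuron-like to endothelial-like nuclei each reached that smallest p (adjusted p = 0.141). For GRIN2B the steps from granule-like to other excitatory, interneuron-like to low-depth, low-depth to endothelial-like and oligodendrocyte-like to astrocyte-like nuclei reached it (adjusted p = 0.0703). The steps of GRIN2A from other excitatory to pyramidal-like, pyramidal-like to low-depth and low-depth to interneuron-like nuclei were within the spread between libraries, as was the step between the pyramidal-like and interneuron-like levels of GRIN2B (exact sign-flip permutation p = 0.719).

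Outside neurons GRIN2A and GRIN2B were low, and microglia-like nuclei, which were assumed and not shown to lack these genes, were set beside the other classes. The part of free RNA in these levels was not tested. In microglia-like nuclei GRIN2A was at 67.5, 33.4 and 75.1 CPM (control) and 97.1, 75.9 and 69.4 CPM (ALP), and GRIN2B at 61.2, 50.05 and 92.4 CPM (control) and 103, 46.1 and 84.2 CPM (ALP). Oligodendrocyte-like nuclei held GRIN2B at 44.96, 103 and 73.8 CPM (control) and 47.6, 47.3 and 44.8 CPM (ALP). Astrocyte-like nuclei held GRIN2A at 41.5, 18.7 and 60.4 CPM (control) and 38.0, 44.97 and 51.0 CPM (ALP), and GRIN2B at 36.6, 48.1 and 68.5 CPM (control) and 32.0, 43.5 and 35.4 CPM (ALP). OPC-like nuclei held GRIN2A at 36.8, 42.9 and 37.6 CPM (control) and 36.1, 34.7 and 44.6 CPM (ALP), and GRIN2B at 61.3, 68.2 and 81.8 CPM (control) and 82.3, 46.3 and 75.7 CPM (ALP). The class means of GRIN2A and GRIN2B in astrocyte-like, oligodendrocyte-like and OPC-like nuclei did not exceed those of microglia-like nuclei (69.7 ± 20.7 CPM for GRIN2A and 72.8 ± 23.6 CPM for GRIN2B), which were also the shallower nuclei, at a median of 808 to 1327 UMIs by library against 1482 to 2201 UMIs in OPC-like nuclei. The endothelial-like means, 83.1 ± 23.6 CPM for GRIN2A and 89.1 ± 38.6 CPM for GRIN2B, were above the microglia-like means and rest on 78 and 77 UMIs. Granule-like nuclei were above microglia-like nuclei in 6 of 6 libraries for both genes, by 4.12 ± 0.37 for GRIN2A and 4.27 ± 0.45 for GRIN2B on the log2(CPM + 10) scale.

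The share of nuclei with a UMI was also taken at equal depth. With each nucleus thinned to 1000 UMIs, leaving out shallower nuclei (12 of 2248 granule-like, 59 of 2360 pyramidal-like, 49 of 2446 interneuron-like and 657 of 1404 microglia-like), 68.7% of granule-like nuclei were expected to hold a GRIN2A UMI, 46.7% of pyramidal-like and 37.5% of interneuron-like nuclei. In microglia-like nuclei the share was 6.19%. For GRIN2B the shares were 75.8%, 56.4% and 58.6%, against 5.93% in microglia-like nuclei. Without thinning, 92.8% of granule-like nuclei held a GRIN2A UMI and 96.1% a GRIN2B UMI, against 7.65% and 7.12% of microglia-like nuclei, whose median depth by library was 808 to 1327 UMIs where that of granule-like nuclei was 2498 to 4112 UMIs.

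GRIN2C, which encodes a GluN2 subunit with low sensitivity to magnesium block, was found in astrocyte-like nuclei. Its levels there were 32.5, 17.4 and 39.9 CPM in control libraries 1, 2 and 3 and 55.9, 37.1 and 64.5 CPM in ALP libraries 1, 2 and 3, a mean of 41.2 ± 16.9 CPM from 259 UMIs. The next class, interneuron-like nuclei, averaged 2.94 ± 1.70 CPM, lower in 6 of 6 libraries, and every other class was under 2 CPM. The step had the smallest p the exact sign-flip test can give (adjusted p = 0.281). The astrocyte-like mean was 14.01 times the interneuron-like mean. Among interneuron-like subtypes GRIN2C was seen at 10.9 ± 7.98 CPM in PVALB-like nuclei, from 15 UMIs, while LAMP5-like nuclei had 0 UMIs, which allows up to 7.26 CPM. Without the upper limit on genes, GRIN2C was among the leading genes of a PVALB-like cluster of 300 nuclei, whose median was 7600.5 UMIs.

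GRIN3A, the glycine-binding subunit that lowers calcium entry, was an interneuron transcript. In interneuron-like nuclei it was at 149, 134 and 110 CPM (control) and 168, 138 and 103 CPM (ALP), a mean of 134 ± 24.2 CPM, 8.75 times the level of the next class. OPC-like nuclei came next at 15.3 ± 7.80 CPM, followed by the low-depth nuclei at 14.3 ± 11.8 CPM and pyramidal-like nuclei at 12.4 ± 8.87 CPM. In pyramidal-like nuclei GRIN3A read 21.8, 23.8 and 0 CPM (control) and 9.88, 9.24 and 9.94 CPM (ALP). The OPC-like level, from 72 UMIs, was above the oligodendrocyte-like level of 0.768 ± 0.412 CPM, the astrocyte-like level of 1.58 ± 1.47 CPM and the microglia-like level of 3.67 ± 3.26 CPM in 6 of 6 libraries each. These 3 pairs were singled out after their values were seen and carry no test. Granule-like nuclei, the richest in GRIN2A and GRIN2B, held GRIN3A at only 1.54 ± 1.45 CPM, from 17 UMIs. Other excitatory nuclei held it at 5.14 ± 6.92 CPM, from 6 UMIs, and endothelial-like nuclei had 1 UMI.

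Interneurons were further divided into SST-like (469 nuclei), PVALB-like (308), VIP-like (518), CNR1-like (500) and LAMP5-like (113) nuclei, with 538 left unnamed. Not every marker was highest in its own subtype. PVALB-like nuclei were highest for PVALB (41.5 against 2.55 CPM) but not for TAC1 (2.25 against 71.3) or LHX6 (33.6 against 41.7). A PVALB-like cluster of 215 nuclei also reached 3 SST markers, and a CNR1-like cluster of 224 nuclei also reached 3 LAMP5 markers. GRIN2A varied widely between these subtypes and GRIN2B did not to the same extent: the highest over the lowest mean was 9.56 for GRIN2A and 1.58 for GRIN2B. LAMP5-like nuclei, which include neurogliaform cells, had the most GRIN2A, at 1533, 1633 and 1636 CPM (control) and 1240, 1781 and 1471 CPM (ALP). SST-like nuclei, which include dendrite-targeting cells, held GRIN2A at 859, 591 and 363 CPM (control) and 768, 977 and 839 CPM (ALP). LAMP5-like nuclei were above SST-like nuclei in 6 of 6 libraries.

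Lower GRIN2A levels were found in the other subtypes. In VIP-like nuclei, a type that largely inhibits other interneurons, GRIN2A was at 365, 296 and 413 CPM (control) and 336, 454 and 410 CPM (ALP). CNR1-like nuclei, which carry the cannabinoid receptor, held it at 268, 370 and 401 CPM (control) and 349, 328 and 224 CPM (ALP). PVALB-like nuclei, a type known for fast spiking, had the least GRIN2A, at 278, 69.4 and 152 CPM (control) and 210, 98.9 and 164 CPM (ALP). Even so PVALB-like nuclei exceeded the microglia-like level in 6 of 6 libraries, by 1.03 ± 0.50 on the log2(CPM + 10) scale. In the neighbour test over subtypes (exact sign-flip permutation, adjusted over 4 pairs) the lowest adjusted p for GRIN2A was 0.0833.

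GRIN2B followed another order, with the highest mean in VIP-like nuclei at 1493, 925 and 1339 CPM (control) and 1154, 1611 and 1122 CPM (ALP). PVALB-like nuclei, lowest for GRIN2A, were second for GRIN2B at 1056, 997 and 962 CPM (control) and 1072, 1288 and 937 CPM (ALP). LAMP5-like nuclei, highest for GRIN2A, were last for GRIN2B at 799, 863 and 788 CPM (control) and 781, 832 and 778 CPM (ALP). SST-like nuclei read 969, 1024 and 767 CPM (control) and 875, 1002 and 716 CPM (ALP), and CNR1-like nuclei 852, 857 and 837 CPM (control) and 820, 1051 and 873 CPM (ALP). Neither these 2 nor any other neighbouring subtypes differed for GRIN2B at an adjusted p under 0.05 (lowest 0.125, exact sign-flip permutation).

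**Figure D2:**
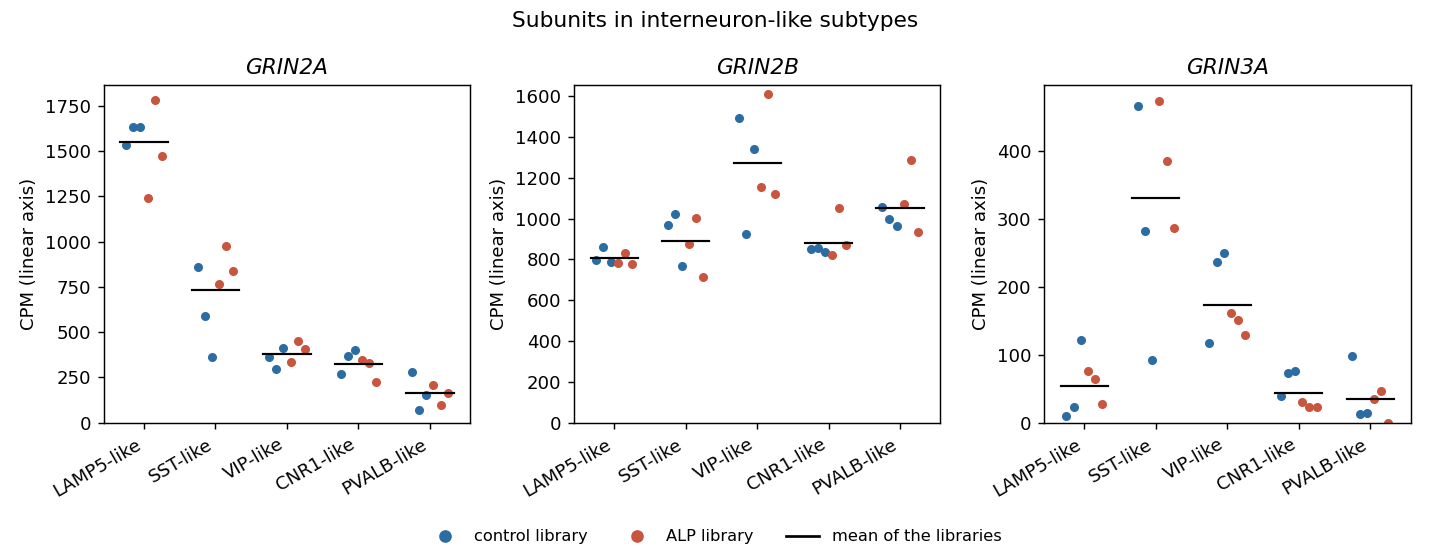
Levels of GRIN2A, GRIN2B and GRIN3A (vertical axes, CPM, linear, a separate scale per panel) in 5 interneuron-like subtypes (horizontal axis), with a point per library coloured by group and a bar at the mean. GRIN2A falls from 1549 CPM in LAMP5-like to 162 CPM in PVALB-like nuclei, GRIN2B stays between 807 and 1274 CPM, and GRIN3A is highest in SST-like nuclei.

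GRIN3A was highest in SST-like nuclei, at 468, 282 and 92.7 CPM (control) and 474, 386 and 287 CPM (ALP). VIP-like nuclei came next at 117, 236 and 250 CPM (control) and 162, 151 and 129 CPM (ALP). The SST-like level was above the VIP-like level in 5 of 6 libraries, control library 3 being the exception (exact sign-flip permutation p = 0.188, adjusted p = 0.375). LAMP5-like, CNR1-like and PVALB-like nuclei averaged 53.9 ± 41.8, 44.3 ± 24.3 and 34.5 ± 35.5 CPM, from 20, 110 and 47 UMIs, and no step among them passed the test.

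Clusters within the subtypes, looked at after their values were seen, are given as a description with no test. Over 14 interneuron-like clusters with at least 10 nuclei in some library, mean GRIN2A ran from 14.4 to 1757 CPM, while mean GRIN2B ran from 671 to 1413 CPM. The lowest GRIN2A was in a CNR1-like cluster of 108 nuclei led by SLC17A8 (the vesicular glutamate transporter VGLUT3) and AGTR1 (an angiotensin receptor). That cluster held 8 GRIN2A UMIs, 14.4 ± 13.6 CPM, below the microglia-like level of 69.7 ± 20.7 CPM, beside 449 GRIN2B UMIs, 827 ± 167 CPM. Its nuclei were deeper than microglia-like nuclei, at a median of 5503.5 against 1031 UMIs, so these levels are not at equal depth. The other CNR1-like clusters held GRIN2A at 170 ± 60.5 CPM (224 nuclei, led by SYT6 and RGS12) and 793 ± 175 CPM (168 nuclei, led by NTNG1 and EBF1). The highest GRIN2A was in 228 nuclei led by NMU and GULP1, at 1757 ± 318 CPM. They did not reach 3 markers of any subtype and stay unnamed. Without the upper limit on genes, LAMP5 was among the leading genes of the cluster led by NMU and GULP1. In the clustering of all nuclei, an interneuron-like cluster of 565 nuclei with LAMP5 among its leading genes held GRIN2A at 1541 ± 244 CPM.

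The SST-like nuclei held clusters that differed in GRIN3A. A cluster of 259 nuclei led by TAC1 and SST held GRIN3A at 546 ± 152 CPM (5 libraries with at least 10 nuclei) and GRIN2A at 952 ± 110 CPM. The other SST-like cluster, of 210 nuclei led by LAMB4 and CUX2, held GRIN3A at 50.4 ± 26.6 CPM and GRIN2A at 485 ± 178 CPM. The first cluster made up 52.9%, 66.7% and 6.93% of SST-like nuclei in control libraries 1, 2 and 3 and 73.1%, 78.6% and 65.2% in ALP libraries 1, 2 and 3. Control library 3, lowest for both GRIN2A and GRIN3A in SST-like nuclei, was the library with few nuclei of the cluster high in both. The part of this makeup in the SST-like levels was not tested.

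**Figure D3:**
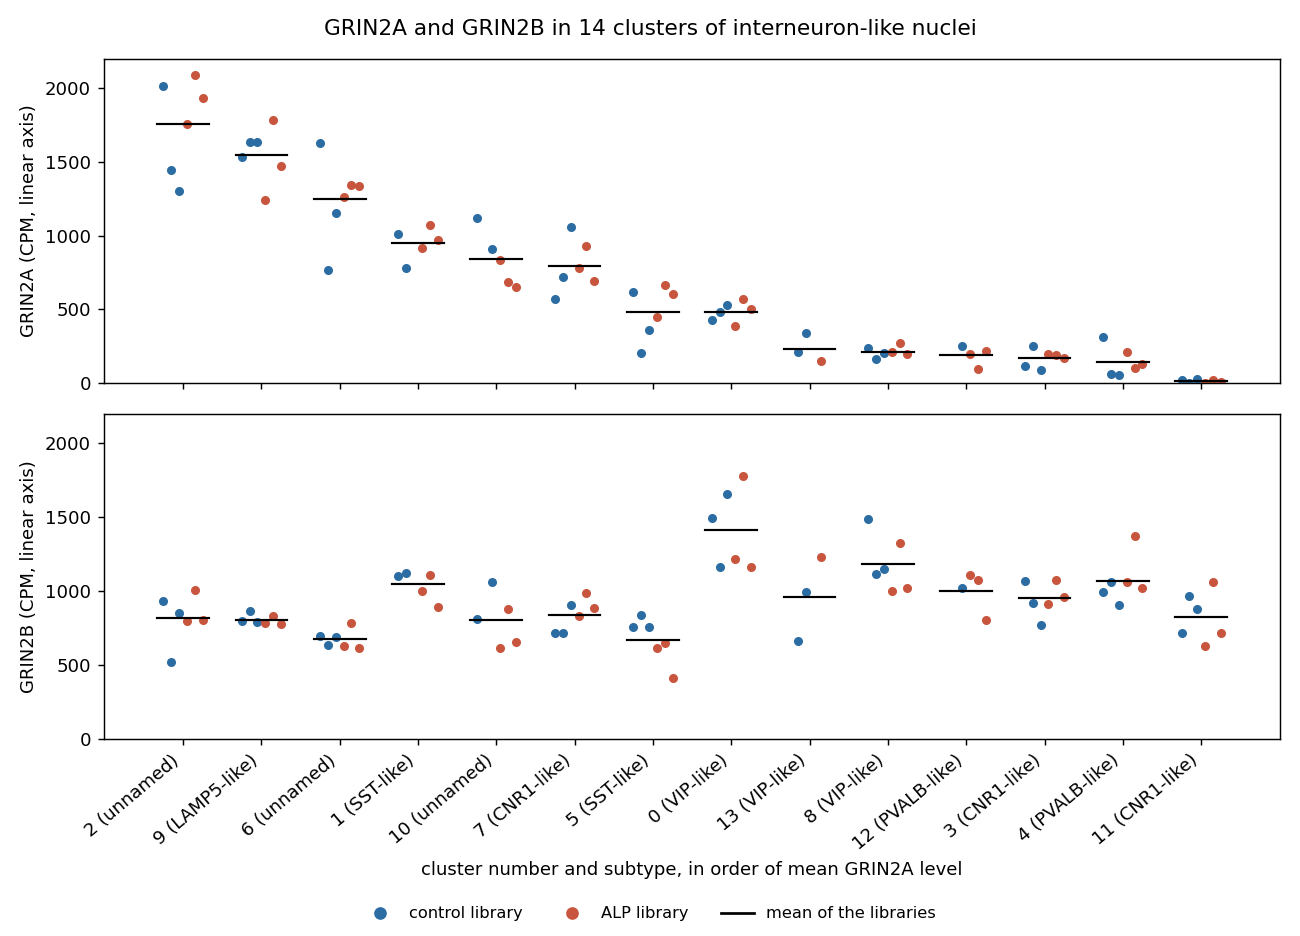
GRIN2A (upper panel) and GRIN2B (lower panel) in 14 clusters of interneuron-like nuclei (horizontal axis, ordered by mean GRIN2A), both in CPM on the same linear scale, with a point for each library that has at least 10 nuclei and a bar at the mean. Mean GRIN2A spans 14.4 to 1757 CPM while mean GRIN2B spans 671 to 1413 CPM.

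The balance of the main GluN2 transcripts was summarised as the GRIN2A share of GRIN2A and GRIN2B UMIs. UMIs of different genes are not on a common scale, so the share compares classes and does not rank the genes. It was 65.6% ± 2.37 in LAMP5-like nuclei, 46.5% ± 3.21 in granule-like, 44.6% ± 4.43 in other excitatory, 44.6% ± 8.28 in pyramidal-like and 44.3% ± 8.23 in SST-like nuclei (SD, n = 6 libraries). It was 26.8% ± 4.69 in CNR1-like, 23.1% ± 2.37 in VIP-like and 13.2% ± 5.54 in PVALB-like nuclei. LAMP5-like nuclei were above granule-like nuclei in 6 of 6 libraries, and SST-like nuclei were above CNR1-like nuclei in 5 of 6. Where levels were low, the share was 49.6% ± 12.9 in endothelial-like, 48.9% ± 7.74 in microglia-like, 48.7% ± 10.9 in astrocyte-like and 46.4% ± 5.02 in oligodendrocyte-like nuclei. The lowest library held only 6 UMIs of the 2 genes in endothelial-like and 5 in microglia-like nuclei. OPC-like nuclei had 36.3% ± 4.62, below oligodendrocyte-like nuclei in 5 of 6 libraries.

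**Figure D4:**
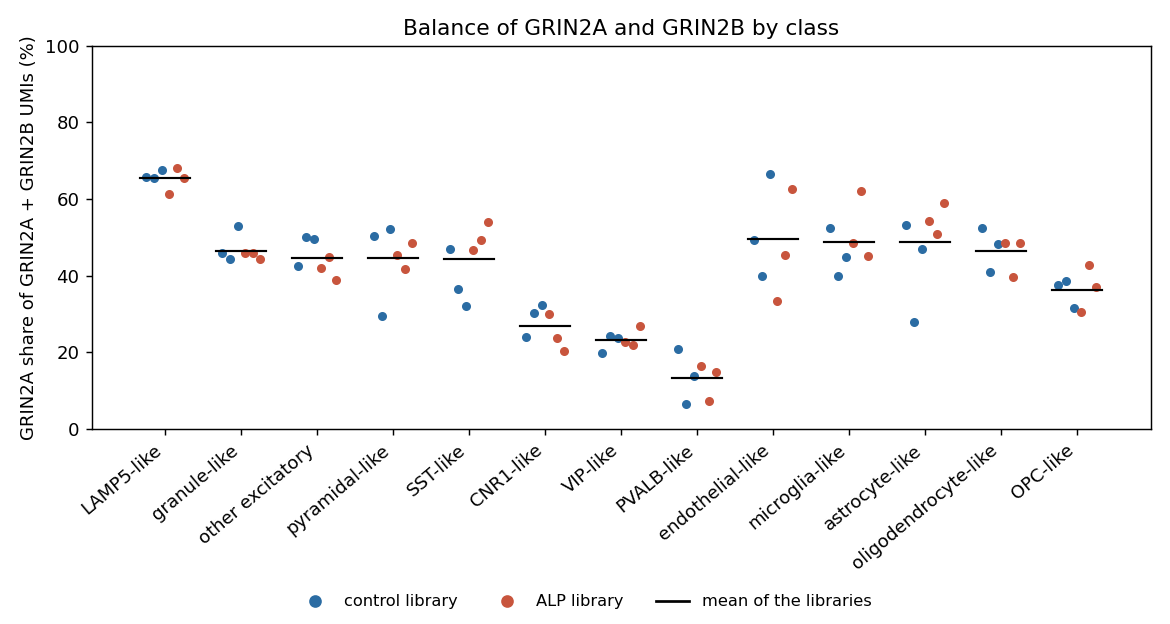
GRIN2A UMIs as a percentage of GRIN2A plus GRIN2B UMIs (vertical axis, 0 to 100%) in neuronal and other classes (horizontal axis), with a point per library coloured by group and a bar at the mean. LAMP5-like nuclei lie at 65.6% and PVALB-like nuclei at 13.2%, with excitatory classes between.

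The ALP and control libraries were then compared for each subunit within each class by edgeR's quasi-likelihood test on summed UMIs, calling a gene at an adjusted p under 0.05 and a log2 fold change beyond 0.25. No subunit was called. Of 21 subunit and class pairs that passed the filter on low counts, edgeR called 0, and its unadjusted p was under 0.05 for 3. DESeq2 called 0 of 40, with 2 at an unadjusted p under 0.05. The 40 pairs are counted whether or not DESeq2 gave an adjusted p, and a pair without one could not be called. Over all genes tested, edgeR called 1.02% in granule-like, 0% in pyramidal-like, 0.067% in interneuron-like and 0.498% in other excitatory nuclei. It called 0.0334% in low-depth, 0.187% in astrocyte-like, 4.8% in oligodendrocyte-like, 1.61% in OPC-like and 0.717% in microglia-like nuclei. DESeq2 called 1.32% in granule-like, 0.675% in pyramidal-like, 2.81% in interneuron-like and 0.998% in other excitatory nuclei. Its shares were 0.00297% in low-depth, 1.99% in astrocyte-like, 3.42% in oligodendrocyte-like, 1.05% in OPC-like, 0.171% in microglia-like and 0% in endothelial-like nuclei. At these shares a set of this size would hold few calls or none. An unadjusted p under 0.05 in edgeR was found for 16.2% of all genes tested in the 9 classes with an edgeR share above and for 11.5% in the 5 subtypes. In interneuron-like subtypes the calls were 0 of 13 pairs, and the unadjusted p was under 0.05 for 2, against backgrounds of 0% (SST-like, PVALB-like), 0.124% (VIP-like), 0.0369% (CNR1-like) and 0.197% (LAMP5-like).

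For GRIN2A and GRIN2B in granule-like and GRIN2A in pyramidal-like nuclei, 95% intervals are given for kept nuclei in the main setting. They do not bound the difference in other settings or in the nuclei over the gene limit. GRIN2A in granule-like nuclei had a log2 fold change of -0.05 with a 95% interval of -0.38 to 0.29 (edgeR adjusted p = 0.943), and all 3 ALP values lay between the lowest and highest controls. The sign turned with DESeq2 (0.01) and without the filter on low counts (0.05). GRIN2B in granule-like nuclei had 0.10, with an interval of -0.23 to 0.43 (edgeR adjusted p = 0.820). In pyramidal-like nuclei GRIN2A had 0.23, with an interval of -0.45 to 0.90 (edgeR adjusted p = 0.806), although its mean over libraries was lower in ALP, 785 ± 101 against 831 ± 362 CPM. Without control library 2 the log2 fold change was -0.03, and without the upper limit on genes it was -0.06. GRIN2B in pyramidal-like nuclei had a log2 fold change of 0.18 to 0.30 when 1 library was left out. Its plain CPM overlapped between groups, with the highest values in control libraries. The fold changes use TMM normalization, so they can differ in direction from the plain CPM. The makeup of pyramidal-like nuclei differed between libraries. The cluster with the most GRIN2A, 987 ± 394 CPM, made up 27.2%, 50.4% and 79.6% of them in control libraries 1, 2 and 3 and 52.3%, 32.3% and 64.8% in ALP libraries 1, 2 and 3, while the other clusters averaged 484 to 749 CPM. The part of this makeup in the result was not tested.

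In granule-like nuclei taken without the upper limit on genes, GRIN2A was at 1436, 1338 and 1428 CPM in control libraries 1, 2 and 3 and at 1139, 1203 and 1100 CPM in ALP libraries 1, 2 and 3. It averaged 1401 ± 54.0 CPM in control and 1147 ± 52.0 CPM in ALP libraries. The edgeR log2 fold change was then -0.20, with an interval of -0.45 to 0.05 (adjusted p = 0.348). It was not called. The groups did not overlap, which on the normalised scale held for 25.9% of all genes tested there, and in the kept nuclei the same means were 1382 ± 205 and 1296 ± 28.6 CPM.

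**Figure D5:**
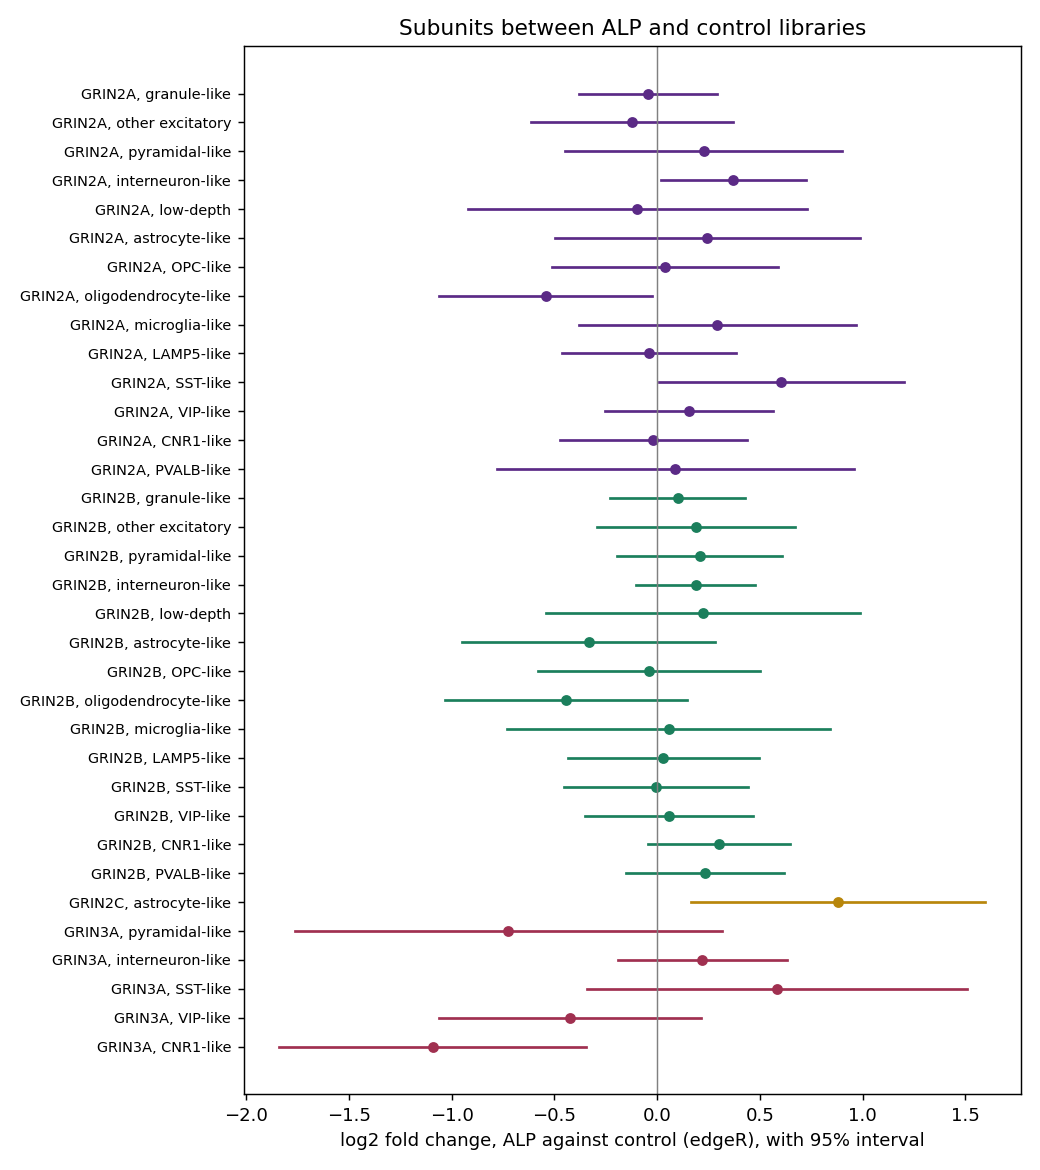
Log2 fold change of ALP against control (horizontal axis, edgeR) with its 95% interval for each subunit and class that passed the filter on low counts (vertical axis), coloured by gene. All 34 pairs missed the threshold after adjustment, and the intervals of 5 pairs exclude 0 before it.

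The 5 pairs with an unadjusted p under 0.05 pointed in different directions. GRIN2A in interneuron-like nuclei had a log2 fold change of 0.37 ± 0.16 (SE, edgeR adjusted p = 0.232), with values that overlapped between groups. The unnamed cluster led by NMU and GULP1, the highest in GRIN2A, made up 6.89%, 4.71% and 8.73% of interneuron-like nuclei in control libraries 1, 2 and 3 and 10.1%, 9.18% and 17.4% in ALP libraries 1, 2 and 3. Its part in the result was not tested. GRIN2A in SST-like nuclei had 0.60 ± 0.27 (edgeR adjusted p = 0.412), beside the uneven cluster makeup given above, whose part was not tested. The value was 0.34 without control library 3 and 0.94 without control library 1. Within the TAC1 and SST cluster alone, GRIN2A was at 1011 and 784 CPM in control libraries 1 and 2 and at 919, 1074 and 973 CPM in ALP libraries 1, 2 and 3, which overlap. Control library 3 had only 7 nuclei there and gives no value. GRIN2C in astrocyte-like nuclei had 0.88 ± 0.33 (edgeR adjusted p = 0.197), with 2 of 3 ALP values above every control value.

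GRIN3A in CNR1-like nuclei was at 38.7, 72.9 and 76.8 CPM in control libraries 1, 2 and 3 and at 30.6, 23.4 and 23.4 CPM in ALP libraries 1, 2 and 3. The groups did not overlap, which on the normalised scale held for 16.7% of all genes tested in these nuclei. Its log2 fold change was -1.09 ± 0.34 (edgeR adjusted p = 0.200), on 9 to 37 UMIs per library. In the CNR1-like cluster led by SYT6 and RGS12, GRIN3A read 118 and 123 CPM in control libraries 2 and 3 but 23.1 CPM in control library 1 and 15.4 to 27.7 CPM in ALP. GRIN2A in oligodendrocyte-like nuclei was at 49.7, 71.1 and 69.2 CPM in control and 44.9, 31.2 and 42.4 CPM in ALP libraries, with a log2 fold change of -0.54 ± 0.24 (edgeR adjusted p = 0.212). These groups did not overlap either, which on the normalised scale held for 23.0% of all genes tested there. The oligodendrocyte-like means were 63.3 ± 11.9 CPM in control and 39.5 ± 7.33 CPM in ALP libraries, beside microglia-like means of 58.6 ± 22.2 and 80.8 ± 14.5 CPM. GRIN2B in the same nuclei had a log2 fold change of the same sign (-0.45 ± 0.27, edgeR adjusted p = 0.368). In the main setting 2 of 21 subunit pairs in classes and 2 of 13 in subtypes did not overlap on the normalised scale. GRIN2B made up 1 pair of each. Over all genes tested this held for 20.2% in the classes with a tested subunit and 16.6% in the subtypes.

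Differences between classes in the response to ALP were tested by the group by class term of an edgeR fit with library as a factor. Among 9 tests (3 subunits, 3 class pairs) edgeR called 0, and the unadjusted p was under 0.05 for 1, beside 6.62% of all genes tested. Over all genes the calls were 0.103% for granule with pyramidal, 4 of 12829 for granule with interneuron and 0.007% for pyramidal with interneuron nuclei, 0.0438% over the 3 pairs together. The exception was GRIN3A, whose log2 fold change was higher by 0.88 ± 0.38 in interneuron-like than in pyramidal-like nuclei (edgeR adjusted p = 0.726).

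The GRIN2A share was compared between the groups in 4 neuronal classes and none passed, in a design of 3 against 3 libraries whose smallest exact p is 0.1. In granule-like nuclei it was 46.0%, 44.3% and 52.9% in control and 45.9%, 45.9% and 44.3% in ALP libraries 1, 2 and 3. The difference was -2.34 percentage points (exact permutation p = 0.6). In pyramidal-like nuclei it was 50.3%, 29.6% and 52.3% in control and 45.4%, 41.6% and 48.6% in ALP, with control library 2 far below the rest (exact permutation p = 1). In interneuron-like nuclei the ALP mean was higher by 3.29 percentage points (exact permutation p = 0.5), and in other excitatory nuclei it was 41.9% ± 2.99 in ALP and 47.3% ± 4.26 in control libraries (exact permutation p = 0.2, adjusted p over the classes 0.8).

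The share of nuclei with a UMI at 1000 UMIs was compared between the groups in 6 ways and none passed (lowest exact permutation p = 0.3, adjusted p = 0.84). None could pass, because the smallest exact p of 3 against 3 libraries is 0.1. A miss here thus does not show equal shares. For GRIN2A the share was 69.1% ± 6.04 in control and 68.3% ± 0.823 in ALP granule-like nuclei. It was 44.1% ± 11.7 and 49.3% ± 4.05 in pyramidal-like, and 35.4% ± 4.81 and 39.6% ± 3.22 in interneuron-like nuclei. For GRIN2B it was 74.5% ± 4.10 and 77.1% ± 0.771, 54.3% ± 5.60 and 58.5% ± 1.45, and 57.8% ± 3.23 and 59.5% ± 5.00 in the same classes.

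Genes known to work with NMDA receptors were taken from 4 lists. In the 4 neuronal classes used for them, 16.4% of all genes tested had an unadjusted p under 0.05. Scaffold and signalling partners, which hold the receptor at the synapse and carry its calcium signal, gave 0 calls in 60 gene and class pairs over the granule-like, pyramidal-like, interneuron-like and other excitatory nuclei, with 7 at an unadjusted p under 0.05 (edgeR), and DESeq2 called 0. The scaffold DLGAP4 in granule-like nuclei had a log2 fold change of -0.69 ± 0.18 (edgeR adjusted p = 0.0900) and its relative DLGAP1 had -0.49 ± 0.18 there (edgeR adjusted p = 0.212). In interneuron-like nuclei the scaffold DLG3 had -0.47 and RASGRF2, a calcium-dependent exchange factor for Ras, had 0.29. The median of the 15 tested partners was -0.08 in granule-like nuclei, beside 0.01 over all genes tested.

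Kinases, phosphatase and trafficking partners gave 0 calls in 48 neuronal pairs, with 10 at an unadjusted p under 0.05 (edgeR), and DESeq2 called 0. Outside neurons CDK5, a kinase that acts on the receptor, was called in oligodendrocyte-like nuclei, 1 of 11 list genes tested there, where 4.8% of all genes were called. CDK5 was at 75.6, 128 and 71.5 CPM in control libraries 1, 2 and 3 and at 185, 129 and 165 CPM in ALP libraries 1, 2 and 3. Its log2 fold change was 1.00 ± 0.25 (edgeR adjusted p = 0.0441), with control library 2 just under ALP library 2, and the call was lost without control library 1 (adjusted p = 0.110), control library 3 (0.191), ALP library 1 (0.171) or ALP library 3 (0.183). In other excitatory nuclei CDK5 had 1.09 ± 0.29 (edgeR adjusted p = 0.0872). EPHB2, a receptor kinase that binds NMDA receptors, had -1.26 ± 0.34 in pyramidal-like nuclei (edgeR adjusted p = 0.192), RELN, a secreted ligand, had -1.84 there, and NETO1, an auxiliary protein, had 0.38 in interneuron-like nuclei.

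Genes of co-agonist supply and of glutamate release and uptake gave 0 calls in 19 and 22 neuronal pairs, with 3 and 2 at an unadjusted p under 0.05 (edgeR), and DESeq2 called 0 in each. PSAT1, an enzyme of serine synthesis, had a log2 fold change of -0.85 in granule-like nuclei and SRR, which makes D-serine, had 0.61 there. PSPH, the last enzyme of serine synthesis, had 1.11 in other excitatory nuclei, and the transporter SLC1A4 had -0.67 in pyramidal-like nuclei. Among glutamate transporters in interneuron-like nuclei, SLC1A2 had -0.94, SLC1A3 0.54 and the vesicular SLC17A8 0.68, and the vesicular SLC17A7 had 0.59 in other excitatory nuclei. Not all genes named here had an unadjusted p under 0.05 (edgeR). Of co-agonist genes tested, 1 of 5 did in granule-like and 0 of 7 in pyramidal-like nuclei. In interneuron-like nuclei 1 of 6 did, and in other excitatory nuclei 1 of 1. Of glutamate genes, 2 of 7 did in interneuron-like and 0 of 4 in other excitatory nuclei. SLC1A2 and SLC1A3 were also astrocyte markers here, at 749 and 3168 CPM in astrocyte-like nuclei. The part of astrocyte RNA in their interneuron-like values was not tested.

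For each subunit the 3 gene symbols with the most similar profile over 14 classes and subtypes were taken by Pearson correlation of log2(CPM + 10), among 8278 candidates. The classes share the same 6 libraries and the interneuron-like class holds its subtypes, so the values are descriptive. For GRIN2A these included ZDBF2 (r = 0.948) and CELF4 (an RNA-binding protein of neurons, 0.940). GRIN2B was most like CLVS1 (r = 0.993), SLC16A7 (a monocarboxylate transporter, 0.990) and HMGCLL1 (0.989), with GRIN2A itself at r = 0.893. GRIN2C was most like ACSM5 (r = 0.976), CNPY1 (0.950) and COL5A1 (a collagen chain, 0.933), each highest in astrocyte-like nuclei. COL5A1 was also on the marker list of pyramidal-like nuclei, where it was at 1.16 CPM against 27.3 CPM in astrocyte-like nuclei. GRIN3A was most like ELFN1 (a postsynaptic adhesion protein of interneurons and one of the markers used to name SST-like nuclei, r = 0.964), SCX (0.922) and COL26A1 (0.909).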

How the data were processed

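Nuclei of the hippocampus of 6 TSs were profiled by 10x 3′ snRNA-seq, 1 library per animal. The authors deposited raw UMI counts per feature and barcode, unnormalized. Cell Ranger is given as version 3.1.0 in the submitters' processing notes and as 6.1.2 in the file headers. The genome build and the use of strand and intronic reads are not given in the sources used here, so a gene and its antisense features may share reads. Libraries held 19182981 to 35898940 UMIs.

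Nuclei with 200 to 2500 genes and under 5% mitochondrial UMIs were kept. They were clustered in scanpy 1.11.5 (2000 variable genes less the 1 that carried a subunit's name, 30 components, Leiden resolution 2) and named by at least 3 markers. The threshold of 0.6 on relative depth that set the low-depth nuclei aside was chosen after the data were seen. Doublets were marked (1.92% to 5.34% of kept nuclei) and not removed from the named classes. Clusters with at least 15% marked doublets were left unnamed, among them 509 nuclei with granule markers (15.1%). Besides the low-depth nuclei, 1228 nuclei in unnamed clusters entered no class. With the subunit genes among the variable genes the granule-like class held 2924 nuclei. UMIs were summed per library and class (at least 10 nuclei) and compared by the quasi-likelihood test of edgeR 4.0.16 under R 4.3.3 (TMM, minimum count 10, Benjamini-Hochberg over all genes tested). DESeq2 1.42.0 was an alternative. Levels used log2(CPM + 10) and exact permutation tests computed with numpy 2.4.6. The edgeR script was tested on simulated data. Other alternatives were the low-count filter, the replicate block, leaving out each library, the upper gene limit, doublet removal, the subunit genes among the variable genes, resolution 1, other pseudocounts and other thinning. Only the upper gene limit in interneuron subtypes was added after seeing the data.

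The members and lists were chosen with earlier results of these data known. The text names every subunit in every class, with library values from about 20 UMIs per library on, list genes that were called or among the 4 lowest unadjusted p over neuronal classes, and the 3 most similar gene symbols, of which 1 is not reported here. Pairs of classes, clusters and the order of GRIN2A shares that were singled out after their values were seen carry no test. P-values of the class pairs and of the share order had been computed and are not given. Floors on UMIs cover counting error only, while the edgeR intervals also include the spread between libraries.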

Additional observations from a re-analysis of the deposited data

How the results depend on the processing

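No subunit was called in classes with DESeq2, without the low-count filter, with the replicate block, without any 1 library, without the upper limit, without doublets, with subunits among the variable genes or at resolution 1. None was called in subtypes with the block, without any 1 library or without the upper limit, nor in interactions under the latter 2. Without ALP library 1, and likewise without ALP library 3, 0 genes of any kind were called in granule-like, pyramidal-like, interneuron-like or other excitatory nuclei. A miss of the subunits there is thus no result about them. Of 510 alternative values over all results, 453 kept their direction and side of the threshold. The replicate numbers did not pair the libraries (30 correlations of -0.297 to 0.125, 1 over 0.1), and with the replicate block 0 subunit pairs were called in classes and 0 in subtypes. Without the upper limit on genes the sign turned for GRIN2A in pyramidal-like (-0.0553), other excitatory (0.14), low-depth (0.34) and LAMP5-like nuclei (0.0696) and for GRIN2B in microglia-like (-0.16), SST-like (0.0117) and LAMP5-like nuclei (-0.0360), and so did the GRIN2A share in pyramidal-like (-2.58 percentage points) and other excitatory nuclei (0.254). GRIN2B in granule-like over other excitatory nuclei then had a log2 difference of 0.24 (exact sign-flip permutation, adjusted p = 0.0469). In the main setting this difference was larger, 0.41, yet did not pass (same test, adjusted p = 0.0703). The adjusted p depends on how many pairs of the gene reach the smallest p. Passing thus says nothing about the size of this step, and the other pairs of that setting are not given here. Nuclei were clustered anew without the upper limit, so these classes are not the same sets with deeper nuclei added. Other excitatory nuclei then numbered 2546 against 420, pyramidal-like 4651 against 2360 and unnamed 2801 against 1228. GRIN2A in granule-like nuclei turned with DESeq2 (0.0132) and without the low-count filter (0.0454). The cause was not tested.

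Leaving out 1 library turned the sign of small differences. The log2 fold change of GRIN2A was then -0.14 to 0.0390 in granule-like, -0.0311 to 0.47 in pyramidal-like, -0.22 to 0.00936 in other excitatory, -0.36 to 0.18 in low-depth, -0.00976 to 0.70 in astrocyte-like, -0.0756 to 0.13 in OPC-like, -0.26 to 0.60 in PVALB-like, -0.16 to 0.14 in CNR1-like and -0.12 to 0.0573 in LAMP5-like nuclei. That of GRIN2B was -0.0290 to 0.36 in low-depth, -0.19 to 0.21 in OPC-like, -0.23 to 0.43 in microglia-like, -0.12 to 0.11 in SST-like, -0.11 to 0.16 in VIP-like and -0.0297 to 0.10 in LAMP5-like nuclei. In percentage points, the difference in GRIN2A share was -4.06 to 0.251 in granule-like and -6.08 to 5.29 in pyramidal-like nuclei and that in nuclei with a UMI -4.26 to 1.28 for GRIN2A in granule-like, -1.48 to 9.12 for GRIN2A in pyramidal-like and -1.24 to 3.47 for GRIN2B in interneuron-like nuclei.

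The CDK5 call in oligodendrocyte-like nuclei was lost with the replicate block (adjusted p = 0.0795), without the upper limit (0.0621), with subunits among the variable genes (0.0541) and at resolution 1 (0.0713), by edgeR. Its log2 fold change was 0.83 to 1.24 when 1 library was left out. Over the alternatives the genes called ran from 0 to 557 in granule-like (95 in the main setting), 0 to 455 in pyramidal-like (0), 0 to 1425 in interneuron-like (8), 0 to 247 in other excitatory (19), 0 to 196 in low-depth (2), 2 to 721 in astrocyte-like (19), 1 to 1339 in oligodendrocyte-like (557), 0 to 548 in OPC-like (141), 10 to 98 in microglia-like (36) and 0 to 10 in endothelial-like nuclei (0). Granule-like nuclei of control library 2 (47) and pyramidal-like nuclei of control library 3 (54) limit the precision there, and GRIN2C and GRIN3A rest on few UMIs outside 1 class each.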

Other observations

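Features named as antisense to the subunits also held UMIs, given here as values over all barcodes. The 10 features antisense to GRIN2A held 2650 UMIs, at 20.04, 11.7 and 34.2 CPM in control libraries 1, 2 and 3 and at 10.0, 6.72 and 6.78 CPM in ALP libraries 1, 2 and 3. The 6 features antisense to GRIN2B held 14171 UMIs, 12009 of them in 1 feature, at 68.4, 99.5 and 140 CPM in the control and 72.4, 81.6 and 52.2 CPM in the ALP libraries. The feature antisense to GRIN3A held 1682 UMIs, at 12.8, 16.3 and 16.2 CPM in the control and 6.81, 5.96 and 2.19 CPM in the ALP libraries. The feature antisense to GRIN2D held 349 UMIs, at 2.57, 1.06 and 1.59 CPM in the control and 2.68, 2.29 and 3.28 CPM in the ALP libraries. No test was run on these features. Those antisense to GRIN1 held 27 UMIs, and a copy feature named GRIN3Bli1 held 27. Whether reads of the genes and of these features can be told apart is not given in the sources used here.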
